A study of Mus musculus with 8 samples.

Results

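Tspan8posMHCIIlo and Tspan8negMHCIIhi medullary thymic epithelial cells (mTECs) were compared across all genes, using 4 of the 8 RNA-seq libraries of the series: 2 of each subset. The pair sets cells proposed to be at a late stage, past Aire expression, against cells at the stage of high Aire, so that the subsets differ in both sort markers at once. Both came from the thymus of wild-type BL6N6 mice aged 4 to 6 weeks and were sorted as CD45-negative, Epcam-positive and CDR1-negative cells, then by surface Tspan8 (positive or negative) and MHCII (low or high). No treatment or engineered allele was used. The subsets are sort gates and not single cell types, and in bulk libraries fewer cells of a type and less RNA per cell cannot be told apart. The sources used here do not say whether mice were pooled or whether same-numbered replicates shared mice, so p-values measure the spread between these libraries. The total count was 4552711 and 7306157 in Tspan8negMHCIIhi and 1941518 and 7783841 in Tspan8posMHCIIlo, of 25466 genes listed.

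mTECs display a broad range of self-antigens to developing thymocytes, so that self-reactive T cells are deleted or diverted into regulatory T cells. Aire, a chromatin-associated regulator, allows the transcription of many tissue-restricted antigens (TRAs), while the transcription factor Fezf2 supports a set that is partly distinct. Mature Aire-expressing mTECs carry much MHCII and costimulatory ligand on the surface. Cells that have lost Aire can take on gene programs of peripheral tissues, among them those of cornified epidermis and of tuft cells, which are chemosensory epithelial cells. Tspan8 encodes a tetraspanin, a membrane protein with 4 transmembrane stretches, and is itself used as an example of a TRA.

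Of 17006 genes tested in 1 edgeR quasi-likelihood fit of all 8 libraries, 2498 (14.7%) were higher and 2490 (14.6%) lower in Tspan8posMHCIIlo, which together are 29.3%. The counts for gene lists below are to be read against these 2 shares. A call needed both a fold change of at least 2 and an adjusted p under 0.01, and levels are given as CPM, the counts scaled to 1000000 reads of the normalised library size. The fitted change was at least 4-fold for 1158 of the higher and 1729 of the lower genes, and at least 16-fold for 250 and 741. Among lower genes 646 had no more than 3 counts, the floor used here, in either Tspan8posMHCIIlo library, whereas 66 higher genes were at the floor in Tspan8negMHCIIhi. The counts by size of change include such genes, whose fitted folds are not resolved. Neurog3, for example, had a fitted log2 fold change of -4.33 but lay only 2.54-fold above the floor. The larger number of lower genes at 16-fold is therefore not a measure of larger decreases. The median log2 fold change of all genes tested was 0.00285. Libraries did not overlap for 2496 of the higher and 2490 of the lower genes called, against 38.9% and 39.0% of all genes tested that lay apart in those directions. Without replicate 2 of Tspan8posMHCIIlo, which leaves the shallowest library alone on that side, 1986 genes were called higher and 1395 lower.

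**Figure D1:**
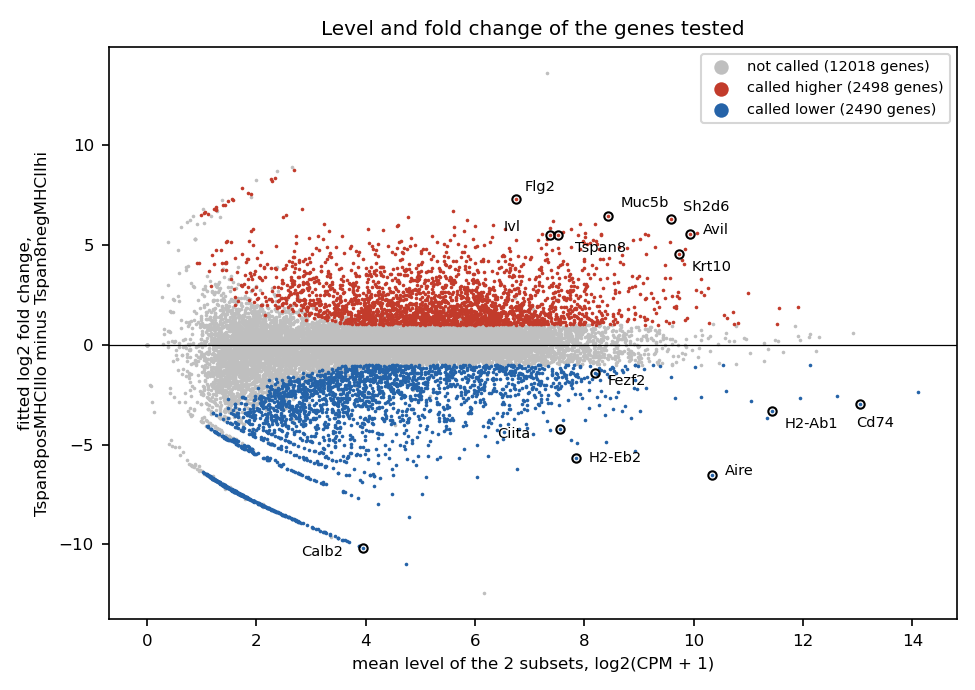
Fitted log2 fold change (Tspan8posMHCIIlo minus Tspan8negMHCIIhi) against the mean level of both subsets, log2(CPM + 1), for the 17006 genes tested. Each point is a gene, red for the 2498 called higher and blue for the 2490 called lower, and the curved rows at the lower left are genes with few or no counts in Tspan8posMHCIIlo, whose fitted values are not resolved folds.

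The sort markers followed the labels. Throughout, a pair of values gives replicates 1 and 2 of Tspan8negMHCIIhi, and the pair after "against" those of Tspan8posMHCIIlo. Tspan8 stood at 7.07 and 8.72 CPM in the Tspan8negMHCIIhi libraries and at 347 and 366 CPM in the Tspan8posMHCIIlo libraries, a log2 fold change of 5.48 ± 0.36 (SE) with an edgeR adjusted p of 4.53e-07. H2-Ab1, which encodes an MHCII beta chain, stood at 4988 and 5098 CPM against 518 and 489 CPM in the same order, a log2 fold change of -3.33 ± 0.13 (edgeR adjusted p = 3.44e-08). Aire was at 2658 and 2476 CPM in Tspan8negMHCIIhi and at 14.8 and 35.4 CPM in Tspan8posMHCIIlo. This log2 fold change of -6.53 ± 0.31 (edgeR adjusted p = 6.41e-08) is larger than those of the genes for the 2 sorted proteins. Tspan8negMHCIIhi had the highest mean level of Aire among the 4 subsets and Tspan8posMHCIIlo the lowest, with 472 CPM in Tspan8posMHCIIhi and 208 CPM in Tspan8negMHCIIlo between them. Epcam, the epithelial marker of the gate, was at 554 and 508 CPM against 1081 and 954 CPM and was not called. Tspan8 and Aire share exonic sequence with an overlapping gene, so that their counts are uncertain.

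**Figure D2:**
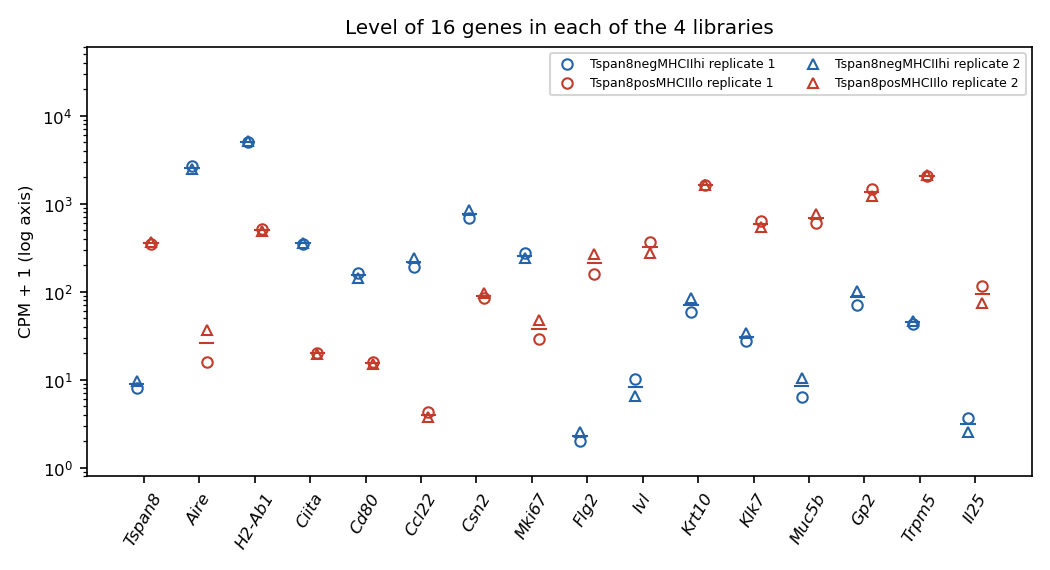
CPM + 1 on a log axis of 16 genes in each of the 4 libraries, blue for Tspan8negMHCIIhi and red for Tspan8posMHCIIlo, with a circle for replicate 1, a triangle for replicate 2 and a line at each subset's mean. The 2 subsets do not overlap for any of the 16 genes, and the first library of Tspan8posMHCIIlo has less Aire than the second.

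Markers of other cell types were measured alongside, and whether their RNA came from such cells or from mTECs was not tested. Here and later, calls that ended when 1 of the 4 libraries was left out are given at the end of the paragraph, with the log2 fold change then fitted in brackets where both subsets had counts. Ptprc, which encodes the CD45 used to exclude blood cells, was at 11.9 and 22.8 CPM in Tspan8negMHCIIhi and 54.4 and 72.9 CPM in Tspan8posMHCIIlo (log2 fold change 1.87 ± 0.40) and was the only one of 15 thymocyte markers called, where 14.7% of all genes tested were higher and 14.6% lower. Those markers summed to 174 and 299 CPM in Tspan8negMHCIIhi and to 186 and 345 CPM in Tspan8posMHCIIlo. Of 13 dendritic cell and macrophage markers tested, 9 were lower and 1 higher in Tspan8posMHCIIlo, and the 16 listed summed to 466 and 555 CPM against 191 and 197 CPM. Clec9a was at 0 in both Tspan8posMHCIIlo libraries, while Itgax, Batf3, Fcer1g and Adgre1 were at 0 in the first of them. Itgam was the higher member, at 13.7 and 22.6 CPM against 90.7 and 101 CPM. Of 15 fibroblast and endothelial markers 2 were higher (Cdh5 and Pecam1) and 4 lower, and of 10 B and plasma cell markers 1 was higher and 3 lower. The fibroblast and endothelial list summed to 645 and 663 CPM against 356 and 312 CPM, and the B and plasma cell list to 123 and 171 CPM against 78.6 and 201 CPM. Leaving out 1 library moved these small counts: 0 fibroblast and endothelial markers were higher without Tspan8posMHCIIlo replicate 1 or either Tspan8negMHCIIhi replicate, and 1 and 2 were lower without Tspan8posMHCIIlo replicates 1 and 2. Of the B and plasma cell markers 0 were higher and 1 lower without replicate 1 of either subset, and 0 were lower without replicate 2 of either. Among 12 markers of cortical TECs, Krt8 was higher and 7 were lower, with Foxn1, Cd83, Dll4, Ccl25, Tbata, Ly75 and Enpep in the lower set. Psmb11 and Prss16 were among those not called. The list summed to 3237 and 3185 CPM against 4503 and 4031 CPM, most of it Krt8. Ptprc (without Tspan8posMHCIIlo replicate 2 or Tspan8negMHCIIhi replicate 1, 1.40 to 1.62), Cdh5 (without Tspan8posMHCIIlo replicate 1 or Tspan8negMHCIIhi replicates 1 or 2, 1.08 to 1.62), Pecam1 (without Tspan8posMHCIIlo replicate 1 or Tspan8negMHCIIhi replicates 1 or 2, 0.78 to 1.10), Krt8 (without Tspan8posMHCIIlo replicate 1 or Tspan8negMHCIIhi replicates 1 or 2, 0.85 to 1.00) and Enpep (without Tspan8posMHCIIlo replicates 1 or 2 or Tspan8negMHCIIhi replicate 2, -1.45 to -1.33) lost their calls with 1 library left out. Itgam, Krt8, Dll4, Ccl25 and Ly75 share exonic sequence with an overlapping gene, so that their counts are uncertain.

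Genes of MHCII presentation fell almost throughout: 15 of the 19 tested (78.9%, against 14.6% of all genes) were lower in Tspan8posMHCIIlo and 1 was higher, with a median log2 fold change of -2.44. Ciita, the transactivator that switches MHCII genes on, was at 347 and 359 CPM in Tspan8negMHCIIhi and 19.2 and 18.6 CPM in Tspan8posMHCIIlo (log2 fold change -4.23 ± 0.16, edgeR adjusted p = 3.19e-08). Among the chains of the peptide-binding molecules, H2-Aa stood at 4603 and 5060.5 CPM against 385 and 364 CPM and H2-Eb1 at 3672 and 3716 CPM against 573 and 484 CPM. H2-Eb2, a less abundant beta chain, fell further, from 432 and 466 CPM to 9.34 and 8.74 CPM (log2 fold change -5.65 ± 0.17). Cd74, the invariant chain that guides MHCII to endosomes, had a log2 fold change of -2.99 ± 0.12. For the chains that load or edit peptides the log2 fold changes were -2.44 ± 0.19 for H2-DMa, -2.06 ± 0.17 for H2-DMb1, -4.85 ± 0.19 for H2-DMb2, -4.47 ± 0.18 for H2-Oa and -4.06 ± 0.33 for H2-Ob. Of the endosomal cathepsins, Ctss, which trims the invariant chain in antigen-presenting cells, fell (-2.25 ± 0.18) and Ctsl, which does so in thymic epithelium, rose (1.45 ± 0.19). Of the subunits of the RFX complex that binds MHCII promoters, Rfx5 fell (-1.35 ± 0.16), while Rfxap and Rfxank were not called. Dendritic cell and macrophage markers, given above, moved with this group, and their part in it was not tested. Ciita, Cd74, H2-DMa, H2-Oa, Ctsl, Rfx5 and Rfxank share exonic sequence with an overlapping gene, so that their counts are uncertain.

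MHCII promoters carry 2 short boxes at a constrained distance, an X box bound by the RFX complex and a Y box bound by NF-Y, which together recruit Ciita. The letters GCAAC, from the core of the X box, followed after 15 to 45 bases by GATTGG, from the Y box, were searched on both strands in the 250 bases before each start in the RefSeq promoter table (GRCm38.p6), where 12471 tested genes had a window. They were found for 5 of the 11 MHCII members called lower that had a window (45.5%), against 0.706% of all tested genes with one. As MHCII promoters are known for these boxes, a high share was foreseeable and is no test of the fall. Stretches were taken only from members called lower, and all 5 belong to chain genes. Both boxes are in capitals.
H2-Aa, chr17:34287862-34287909, minus strand: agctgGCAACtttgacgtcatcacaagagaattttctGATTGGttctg
H2-Eb1, chr17:34305771-34305817, plus strand: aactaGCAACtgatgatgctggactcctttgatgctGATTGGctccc
H2-Eb2, chr17:34325538-34325584, plus strand: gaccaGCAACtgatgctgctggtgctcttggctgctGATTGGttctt
H2-Oa, chr17:34092298-34092345, plus strand: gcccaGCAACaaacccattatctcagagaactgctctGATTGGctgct
H2-Ob, chr17:34238813-34238857, plus strand: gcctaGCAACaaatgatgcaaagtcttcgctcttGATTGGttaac
Between 24 and 27 bases separated the boxes, and the second ended between 38 and 95 bases before the start. A match is a description of the letters and not a measured binding site.

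Class I presentation moved less. Of 17 genes tested 3 were lower (Psmb10, Psme2 and Pdia3) and none was higher in the edgeR fit (at an unadjusted p under 0.05 the count is 6, and by DESeq2 0). H2-K1 was at 4346 and 4261 CPM against 5669.8 and 5643 CPM, and B2m at 2582 and 3062 CPM against 2527 and 2278 CPM. Neither was called. Without Tspan8posMHCIIlo replicate 2 the count of higher genes was 1, and without Tspan8negMHCIIhi replicate 1 that of lower genes was 5. Pdia3 shares exonic sequence with an overlapping gene, so that its count is uncertain.

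Costimulatory and coinhibitory ligands were mostly lower, 11 of 18 against 3 higher. Cd80 and Cd86, the ligands of CD28, were at 162 and 143 CPM and 23.5 and 24.4 CPM in Tspan8negMHCIIhi, respectively. In Tspan8posMHCIIlo they were at 14.8 and 14.1 CPM and at 0.55 and 0.683 CPM, and the subsets do not overlap for either gene. Cd40, which receives the signal of CD40 ligand from T cells, had a log2 fold change of -4.24 ± 0.18, and Icosl, the ligand of ICOS, one of -3.50 ± 0.15. The 3 higher members were Vtcn1 (4.85 ± 0.66), which encodes the inhibitory ligand B7-H4, Nectin2 (1.76 ± 0.14) and Lgals9 (1.66 ± 0.14). Cd274, the gene for PD-L1, was not called at 226 and 232 CPM against 230.3 and 186 CPM. Dendritic cell and macrophage markers, whose cells also use Cd80, Cd86 and Cd40, fell beside this list (9 of 13 lower), and their part in it was not tested. Nectin2 and Cd274 share exonic sequence with an overlapping gene, so that their counts are uncertain.

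Receptors of the TNF family and their NF-kB pathway, which drive mTEC maturation, were lower in 8 of 25 genes tested (32%, against 14.6% of all genes) and higher in 4 (16%, against 14.7%). Tnfrsf11a, the gene for RANK, was at 189 and 197 CPM in Tspan8negMHCIIhi and 63.8 and 66.8 CPM in Tspan8posMHCIIlo (log2 fold change -1.56 ± 0.16), and its decoy receptor Tnfrsf11b had a log2 fold change of -1.41 ± 0.16. Ltbr, the lymphotoxin receptor, went the other way, from 27.0 and 30.8 CPM to 108 and 104 CPM (1.87 ± 0.18), as did Tnfrsf1a (1.69 ± 0.17). In the alternative NF-kB arm Relb had a log2 fold change of -1.18 ± 0.14, while Nfkb2 was not called. Nfkb2 shares exonic sequence with an overlapping gene, so that its count is uncertain.

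Chemokines and cytokines of the thymus went in both directions: of 32 genes tested, 11 were lower and 9 higher, or 7 and 7 without replicate 2 of Tspan8posMHCIIlo. Ccl22, a ligand of CCR4, was at 187 and 241 CPM in Tspan8negMHCIIhi and 3.30 and 2.73 CPM in Tspan8posMHCIIlo. Ccl19, a ligand of CCR7, was at 153 and 169.6 CPM against 8.24 and 4.50 CPM, and Ccl25, a ligand of CCR9, at 207 and 283 CPM against 28.6 and 27.0 CPM. Ccl21a, the other CCR7 ligand on the list, rose (1.20 ± 0.23), though its mean was highest in Tspan8negMHCIIlo at 3554 CPM. Its copies are near-identical, so its count is uncertain. Cxcl16, a ligand of CXCR6, was also higher (1.02 ± 0.19), as was Ccl20, while Cxcl12 and Cx3cl1 were not called. Il25, an alarmin made by tuft cells, was at 2.70 and 1.54 CPM against 114 and 73.6 CPM. The IL-1 family members Il1f5, Il1f6 and Il1f9, known from keratinocytes, had log2 fold changes of 4.05 ± 0.34, 3.50 ± 0.31 and 2.96 ± 0.24, and Il33 one of 3.32 ± 0.34. Ackr4, a scavenger of CCR7 and CCR9 ligands, rose by 4.59 ± 0.30. Ccl21a (without Tspan8posMHCIIlo replicate 1 or Tspan8negMHCIIhi replicates 1 or 2, 0.83 to 1.13), Cxcl16 (without Tspan8posMHCIIlo replicate 2 or Tspan8negMHCIIhi replicate 2, 0.82 to 1.01) and Ccl20 (without any 1 of the 4 libraries, 1.44 to 1.78) lost their calls with 1 library left out. Cxcl16 and Ackr4 share exonic sequence with an overlapping gene, so that their counts are uncertain.

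Fezf2 fell less than Aire. It stood at 435 and 416 CPM in Tspan8negMHCIIhi and 136 and 183 CPM in Tspan8posMHCIIlo, a log2 fold change of -1.40 ± 0.17 (edgeR adjusted p = 4.05e-05). Among 27 genes for Aire, Fezf2 and their partners 6 were lower (22.2%, against 14.6% of all genes) and 2 higher (7.41%, against 14.7%). The other 19 were not called, with Chd4 and Prkdc among them. Sirt1, a deacetylase that acts on Aire, was at 386 and 384 CPM against 45.1 and 88.6 CPM (log2 fold change -2.46 ± 0.27). Dnmt3l lies next to Aire, its exons overlap those of Aire on the other strand, and it was at 47.0 and 38.6 CPM against 0.55 and 0.41 CPM. Prdm1, which encodes Blimp1, was among the higher members (3.25 ± 0.23), of which 1 was left without either Tspan8negMHCIIhi replicate. Chd4, Sirt1 and Dnmt3l share exonic sequence with an overlapping gene, so that their counts are uncertain.

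By count of genes, TRAs known to depend on Aire were mostly lower. Of 73 listed genes 47 passed the filter on low counts, and 28 of those were lower and 6 higher. Their total did not fall. The listed genes summed to 2300 and 2823 CPM in Tspan8negMHCIIhi and to 4357 and 4476 CPM in Tspan8posMHCIIlo. A gene can pass that filter through its level in Tspan8negMHCIIhi alone, and it could then only be lower. The share of lower genes, here and in the other lists, therefore depends in part on the filter. Csn2, a milk casein, was at 682 and 847 CPM in Tspan8negMHCIIhi and 84.1 and 94.5 CPM in Tspan8posMHCIIlo (log2 fold change -3.09 ± 0.23). Cyp1a2, a liver cytochrome P450, and Muc6, a gastric mucin, had no count in Tspan8posMHCIIlo. They were at 24.5 and 30.5 CPM and 22.3 and 22.7 CPM in Tspan8negMHCIIhi, which makes them at least 26.7-fold and 21.8-fold lower. Ins2, an insulin gene, was at 6.24 and 8.84 CPM against 0.55 and 0.683 CPM. Npy was at 11.2 and 12 CPM against 0 and 0.273 CPM, with counts of 0 in the first Tspan8posMHCIIlo library and under the floor in the second. The 6 higher members were Krt1, Oit1, Bpifa1, Reg3g, Cd177 and Iapp, with log2 fold changes between 2.20 (Iapp, an islet peptide) and 3.78 (Krt1, a suprabasal keratin). Antigens tied to Fezf2 were lower in 17 of 20, with a median of -2.28, and the 1 higher member was Krt10. With Krt10 included, they summed to 1903 and 2125 CPM against 1935 and 1951 CPM. Without replicate 2 of Tspan8posMHCIIlo, 16 of the Aire-associated genes were called lower and 6 higher. Apob and Apoa4, carriers of dietary lipid, had log2 fold changes of -3.88 ± 0.32 and -2.53 ± 0.37, and Fgf21 one of -3.82 ± 0.16. Ins2 (without Tspan8posMHCIIlo replicate 2, -3.72) lost its call with 1 library left out. Krt10 and Apoa4 share exonic sequence with an overlapping gene, so that their counts are uncertain.

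The breadth of transcription differed as well. Between 22705 and 23570 genes had a count above 0 in Tspan8negMHCIIhi, and 18173 and 20777 in Tspan8posMHCIIlo, but these numbers depend on depth. Thinned to the 1941518 counts of the smallest library, 20896 and 21106 genes were expected above 0 in Tspan8negMHCIIhi. In Tspan8posMHCIIlo 18173 and 18565 were expected, in Tspan8posMHCIIhi 19275 and 19543, and in Tspan8negMHCIIlo 18462 and 18846. At equal depth both Tspan8negMHCIIhi libraries therefore lay above the other 6, with no overlap.

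Many of the increases were genes of the cornified epidermis. In skin, basal keratinocytes move upwards, switch to suprabasal keratins and then build the cornified envelope, a protein shell with lipids attached to it. Of 53 genes of the envelope and of the epidermal differentiation complex that were tested, 29 were higher and 7 lower in Tspan8posMHCIIlo, with a median log2 fold change of 2.34. Flg2, a filaggrin relative that aggregates keratin, was at 1.04 and 1.54 CPM in Tspan8negMHCIIhi and 159 and 265 CPM in Tspan8posMHCIIlo, a log2 fold change of 7.30 ± 0.47 (edgeR adjusted p = 4.14e-07). Flg itself was at 15.4 and 16.2 CPM against 458 and 610.2 CPM. Of the envelope scaffold proteins, Ivl (involucrin) was at 9.15 and 5.51 CPM against 366 and 276 CPM and Lor (loricrin) at 10.2 and 8.33 CPM against 247 and 359 CPM. Kprp, Cnfn and Crct1 had log2 fold changes of 5.95 ± 0.22, 5.84 ± 0.24 and 5.22 ± 0.37, and 2 open reading frames of the same region, 2310050C09Rik and 2310046K23Rik, ones of 6.71 ± 0.40 and 5.98 ± 0.36. Cross-linked precursors of the Sprr family were higher in 11 members, from 2.03 (Sprr1b) to 4.29 (Sprr2g), but Sprr2 genes are close copies and their counts are uncertain. The members that fell were mainly S100 calcium-binding proteins: S100a14 was at 586 and 579 CPM against 273 and 209 CPM, and S100a16, S100a3, S100a4, S100a8 and S100a7a were lower too, as was Lce3b. The lower members numbered 3 without Tspan8posMHCIIlo replicate 2 and 4 without Tspan8negMHCIIhi replicate 2. Sprr1b (without Tspan8negMHCIIhi replicates 1 or 2, 1.9 to 1.99), S100a4 (without Tspan8posMHCIIlo replicate 2 or Tspan8negMHCIIhi replicate 2, -1.60 to -0.94), S100a8 (without Tspan8posMHCIIlo replicate 2, -2.30), S100a7a (without Tspan8posMHCIIlo replicate 2 or Tspan8negMHCIIhi replicate 2) and Lce3b (without Tspan8posMHCIIlo replicates 1 or 2 or Tspan8negMHCIIhi replicate 2) lost their calls with 1 library left out. S100a3 and S100a4 share exonic sequence with an overlapping gene, so that their counts are uncertain.

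The letters TGANTCA, a loose form of the site of AP-1 factors with any base at N, were searched on either strand in the 250 bases before the start. A match was found for 12 of this list's 20 higher genes with a window (60%), against 6.56% of all tested genes with one. The 12 include close copies, such as Sprr2b, Sprr2d, Sprr2e and Sprr2h, so they are not independent. Among all genes called higher the share was 9.66%, and among those called lower 7.82%. The letters were not shared by all epidermal lists taken up below. They were found for 0 of 7 higher suprabasal keratins with a window and 1 of 19 higher skin barrier genes (5.26%). For higher kallikreins and protease inhibitors the count was 5 of 17 (29.4%). The stretches of 4 genes are shown because these encode main proteins of the envelope.
Flg2, chr3:93197189-93197225, plus strand: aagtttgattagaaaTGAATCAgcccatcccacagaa
Flg, chr3:93273428-93273464, plus strand: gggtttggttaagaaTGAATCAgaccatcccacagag
Ivl, chr3:92573830-92573866, minus strand: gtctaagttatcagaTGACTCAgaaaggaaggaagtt
Lor, chr3:92083169-92083205, minus strand: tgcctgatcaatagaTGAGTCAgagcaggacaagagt
Capitals mark the motif, which began 69 bases before the start in Flg2, 103 in Flg, 116 in Ivl and 48 in Lor. Only the letters in Ivl and Lor, with C or G at N, match the AP-1 consensus, while Flg2 and Flg have A there. Genes for AP-1 and other immediate early factors were higher in 12 of 23 and lower in none in the edgeR fit (1 at an unadjusted p under 0.05, and 0 by DESeq2), with a median log2 fold change of 1.03. Fosl2 was at 163 and 157 CPM against 488 and 459 CPM and Fos at 855 and 916 CPM against 1975 and 2517 CPM, and the log2 fold change was 1.33 ± 0.17 for Atf3 and 3.74 ± 0.19 for Egr3. Without Tspan8posMHCIIlo replicate 1 the count of lower genes was 1. Such genes also respond to tissue dissociation, and the part of cell handling was not tested.

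The genes of this block lie in clusters. Of 573 stretches of 1 Mb with at least 10 genes tested, the one at chr3:92000001-93000000 (GRCm38), which holds much of the epidermal differentiation complex, had 21 of 36 genes higher (58.3%) and 1 lower. At chr15:101000001-102000000, in the type II keratin cluster, 16 of 32 were higher and 7 lower. At chr15:74000001-75000000, with the Ly6 genes, 10 of 20 were higher and 4 lower. These stretches were singled out after their values were seen.

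Suprabasal keratins were higher in 13 of 19 and lower in 4. Krt10, a keratin of early suprabasal cells, was at 57.4 and 82.8 CPM in Tspan8negMHCIIhi and 1629 and 1632 CPM in Tspan8posMHCIIlo. Its partner Krt1 was at 12.9 and 25.1 CPM against 271 and 266 CPM. Krt16 and Krt6a, which appear in stressed epidermis, had log2 fold changes of 4.22 ± 0.17 and 6.02 ± 0.30, although Krt6a and Krt6b are close copies. Krt13, Krt24, Krt36 and Krt76 were lower, with Krt13, a keratin of internal squamous epithelium, at 23.9 and 28.5 CPM against 0 and 2.87 CPM. Krt36 (without Tspan8posMHCIIlo replicates 1 or 2 or Tspan8negMHCIIhi replicate 2) lost its call with 1 library left out. Krt6a, Krt6b and Krt76 share exonic sequence with an overlapping gene, so that their counts are uncertain.

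Enzymes of the skin barrier were higher in 24 of 37 and lower in none by the edgeR test (3 at an unadjusted p under 0.05, and 0 by DESeq2). Abca12, the lipid transporter of lamellar granules, was at 3.12 and 6.28 CPM against 117 and 105 CPM, and Cers3, a ceramide synthase of the epidermis, at 2.08 and 1.67 CPM against 53.9 and 40.3 CPM. The lipoxygenase Aloxe3, the transglutaminase Tgm1 and the protease Asprv1 had log2 fold changes of 3.95 ± 0.20, 3.62 ± 0.30 and 3.34 ± 0.24. In a list of kallikreins, which cut the bonds between cornified cells, and of protease inhibitors (serpins, Spinks, cystatins and Wfdc proteins, not all of which act on kallikreins), 22 of 33 genes were higher and 3 lower. Klk7 was at 26.2 and 33.3 CPM against 639 and 537 CPM, and Spink5, which inhibits it, at 28.3 and 52.3 CPM against 1355 and 1574 CPM. Klk10, Klk11 and Klk13 had log2 fold changes of 3.76 ± 0.40, 3.88 ± 0.30 and 4.40 ± 0.19. Serpinb12 fell from 111 and 139 CPM to 13.2 and 16 CPM. Among desmosome, gap and tight junction genes 19 of 33 were higher and 2 lower: Dsg3 was at 1.66 and 3.85 CPM against 102 and 95.4 CPM, and Dsp, Jup and Cldn4 had log2 fold changes of 2.60 ± 0.20, 2.35 ± 0.17 and 1.47 ± 0.19. Tgm1 and Dsp share exonic sequence with an overlapping gene, so that their counts are uncertain.

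Of 47 transcription factors of epithelial differentiation 26 were higher and 2 lower. Ehf, an Ets family factor of epithelia, was at 103 and 114 CPM in Tspan8negMHCIIhi and 706 and 669 CPM in Tspan8posMHCIIlo, a log2 fold change of 2.66 ± 0.14 (edgeR adjusted p = 1.17e-07). Its relative Elf3 was at 173 and 188 CPM against 1097 and 1294 CPM. Klf4, which the epidermal barrier requires, was at 227 and 255 CPM against 1226 and 1379 CPM, and Grhl1, Ovol1 and Cebpb rose by 2.63 ± 0.17, 2.32 ± 0.18 and 2.63 ± 0.22 on the log2 scale. Tfap2b fell from 95.9 and 127 CPM to 11 and 17.6 CPM, and without replicate 2 of either subset the lower factors numbered 1. In the Notch pathway, which drives suprabasal fate in skin, 6 of 23 genes were higher (26.1%, against 14.7% of all genes) and 3 lower (13%, against 14.6%). Notch3, Jag1, Hes1 and Nrarp rose (3.21 ± 0.34, 2.06 ± 0.33, 2.65 ± 0.22 and 2.87 ± 0.24) and Dll4, the ligand of the cortical stroma, fell (-2.72 ± 0.27). Ly6 family genes were higher in 15 of 25 and lower in 6, with Lypd3 at 15.6 and 17.7 CPM against 525 and 411 CPM and Ly6h at 52.8 and 43.6 CPM against 1.65 and 1.37 CPM. Of 28 tetraspanins 10 were higher (35.7%, against 14.7% of all genes) and 4 lower (14.3%, against 14.6%). Tspan6 (3.95 and 4.49 CPM against 96.7 and 114 CPM) and Tspan1 (17.3 and 27.6 CPM against 254 and 294 CPM) rose beside Tspan8 itself, and Cd9 had a log2 fold change of 1.04 ± 0.13. The higher tetraspanins numbered 6 without Tspan8posMHCIIlo replicate 1 and 5 without either Tspan8negMHCIIhi replicate, and the lower ones 2 without Tspan8posMHCIIlo replicate 2. Cd9 (without Tspan8posMHCIIlo replicate 1 or Tspan8negMHCIIhi replicates 1 or 2, 0.91 to 0.97) lost its call with 1 library left out. Elf3, Ovol1, Cebpb, Notch3, Nrarp, Lypd3 and Cd9 share exonic sequence with an overlapping gene, so that their counts are uncertain.

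**Figure D3:**
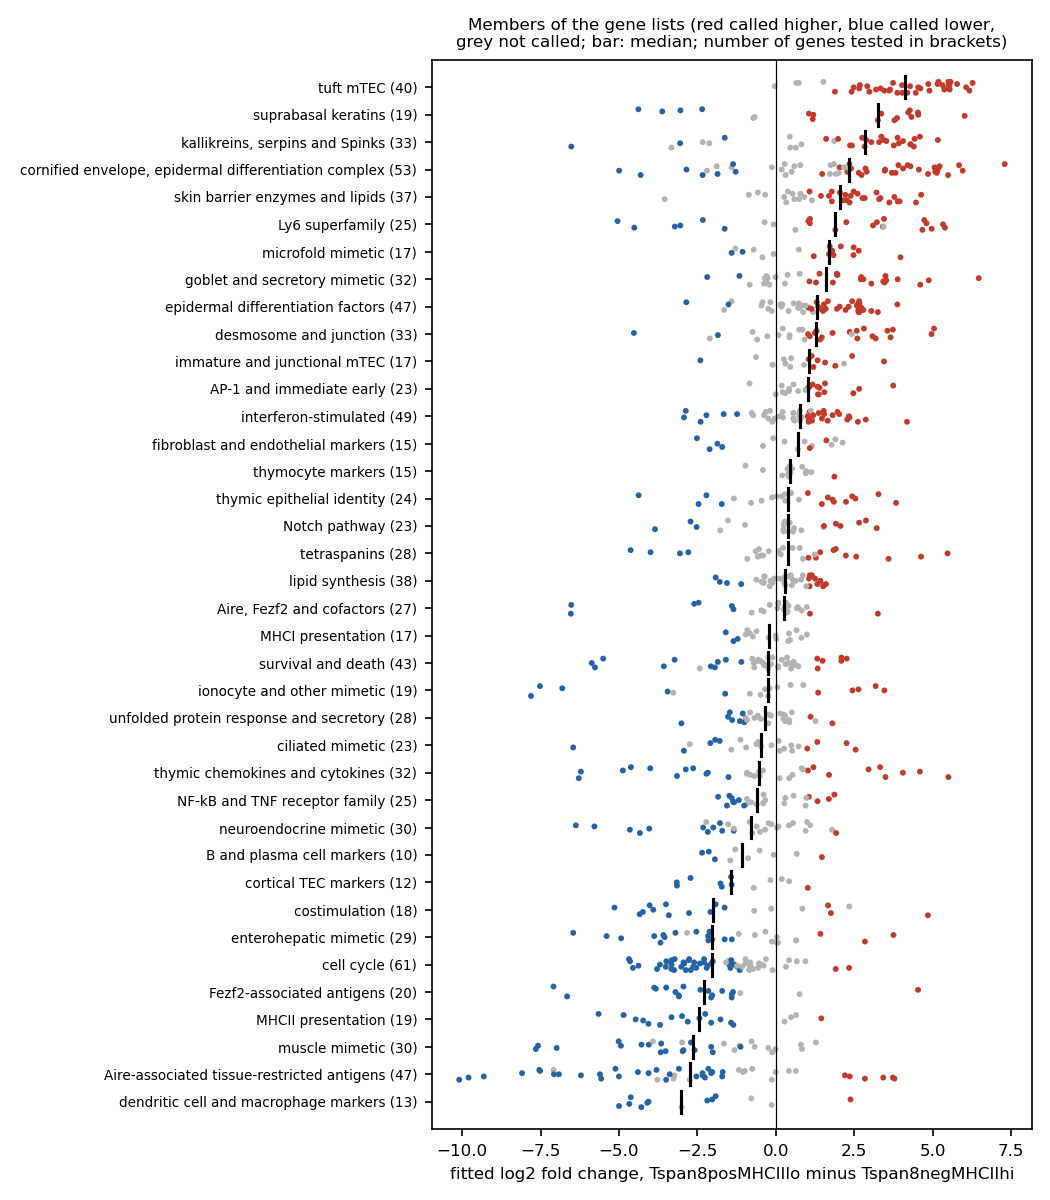
Fitted log2 fold change (Tspan8posMHCIIlo minus Tspan8negMHCIIhi) of the tested members of 38 gene lists, sorted by the list's median (black bar). Each point is a gene, red if called higher, blue if called lower and grey if not called. The tuft list has the highest median (4.11) and the dendritic cell and macrophage list the lowest (-3.01).

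Of the 41 lists, that of tuft cells had the largest share of higher genes, 36 of 40 (90.0%, against 14.7% of all genes), with none lower in the edgeR fit (0 also at an unadjusted p under 0.05 and by DESeq2) and a median log2 fold change of 4.11. Pou2f3, the transcription factor that tuft cells require, was at 23.3 and 23.1 CPM in Tspan8negMHCIIhi and 342 and 338 CPM in Tspan8posMHCIIlo (log2 fold change 3.87 ± 0.17, edgeR adjusted p = 3.96e-08). In the taste cascade, the channel Trpm5 was at 42.0 and 45.4 CPM against 2046 and 2107 CPM, the phospholipase Plcb2 at 24.7 and 33.2 CPM against 836 and 863 CPM, and the G protein subunit Gnat3 at 2.70 and 10.6 CPM against 128 and 136 CPM. The receptor genes Tas1r1 and Tas1r3, for umami and sweet taste, had log2 fold changes of 2.68 ± 0.61 and 3.19 ± 0.26. Of the enzymes for leukotrienes and prostaglandins, Alox5 was at 7.90 and 11.9 CPM against 479 and 446 CPM and its partner Alox5ap at 4.37 and 4.87 CPM against 341 and 333 CPM, with 3.73 ± 0.26 for Ltc4s, 4.54 ± 0.20 for Ptgs1 and 1.88 ± 0.16 for Hpgds on the log2 scale. Chat, which makes acetylcholine, was at 2.50 and 5.26 CPM against 114 and 130.5 CPM. The adaptors Sh2d6 and Sh2d7 had log2 fold changes of 6.27 ± 0.22 and 6.07 ± 0.28, the kinase Bmx one of 5.78 ± 0.17, the kinase-like Dclk1 one of 5.31 ± 0.20 and the villin relative Avil one of 5.54 ± 0.18. Il17rb, the receptor of Il25, had one of 4.28 ± 0.26. Vav1, Fyb, Ptpn6 and Plcg2, which blood cells also use, had log2 fold changes between 2.66 (Plcg2) and 5.18 (Vav1). Ptprc rose with this group, as given above, while the other thymocyte markers were not called, and the part of blood cells in the tuft list was not tested. Spib, Il13ra1, Trpa1 and Sucnr1 were the members not called. Tas1r1 (without any 1 of the 4 libraries, 2.57 to 2.70) lost its call with 1 library left out. Trpm5, Tas1r3, Alox5ap, Ltc4s, Ptgs1, Sh2d7, Dclk1, Avil, Il17rb, Fyb and Ptpn6 share exonic sequence with an overlapping gene, so that their counts are uncertain.

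The octamer-like letters ATGCAAA, part of the motif of POU factors, were found on either strand in 3 of the 30 higher tuft genes with a window (10%), against 4.14% of all tested genes with one. Among all genes called higher the share was 6.06%, and among higher cornified envelope genes it was 20% (4 of 20). The letters were thus not particular to the tuft list. Avil had 2 matches and Tspan8, which is not a tuft list member, had 1.
Avil, chr10:127000579-127000615, plus strand: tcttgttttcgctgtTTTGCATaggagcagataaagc
Avil, chr10:127000679-127000708, plus strand: gagaatgtggttatgATGCAAAcacaagca
Tspan8, chr10:115817074-115817110, plus strand: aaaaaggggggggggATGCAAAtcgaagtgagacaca
The motif, in capitals, began 115 and 15 bases before the start in Avil and 195 before it in Tspan8, and in the first of these stretches it reads on the opposite strand.

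Other mimetic programs, sets of genes that mTECs share with a peripheral cell type, went in both directions. Genes of microfold cells, which sample gut antigen, were higher in 10 of 17 and lower in 2. Gp2, their receptor for bacteria, was at 69.7 and 100.2 CPM in Tspan8negMHCIIhi and 1463 and 1221 CPM in Tspan8posMHCIIlo, and Ccl20 at 49.3 and 62.3 CPM against 169 and 193 CPM. Of 32 goblet and secretory genes 19 were higher and 2 lower. The airway mucin Muc5b was at 5.41 and 9.48 CPM against 604 and 763 CPM (log2 fold change 6.47 ± 0.28), Ltf (lactoferrin) at 17.5 and 34.0 CPM against 792 and 748 CPM, and Agr2, a chaperone of mucins, had a log2 fold change of 4.6 ± 0.26. Muc2, the mucin of gut goblet cells, was not called at 25.6 and 30.1 CPM against 21.4 and 31.8 CPM. In contrast, of 30 muscle genes 17 were lower and none higher in the edgeR fit (1 at an unadjusted p under 0.05, and 0 by DESeq2): Ttn was at 261 and 243 CPM against 28.0 and 35.5 CPM, and Myh8, a perinatal myosin, at 28.7 and 25.1 CPM against 0 and 0.137 CPM. The factor Myog was not called at 6.45 and 6.79 CPM against 7.70 and 5.32 CPM. The letters CAGCTG, an E-box that myogenic factors bind, were found for 6 of the 13 lower muscle genes with a window (46.2%), against 15% of all tested genes with one. Without Tspan8posMHCIIlo replicate 2 the lower muscle genes numbered 10, and without replicate 1 there was 1 higher. The lower goblet and secretory genes numbered 1 without Tspan8posMHCIIlo replicate 1 or Tspan8negMHCIIhi replicate 2. Ttn shares exonic sequence with an overlapping gene, so that its count is uncertain.

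Enterohepatic genes were lower in 16 of 29 and higher in 3, although the list summed to 1602 and 1953 CPM against 2881 and 3131 CPM. Fabp6, an ileal bile acid binder, was at 30.4 and 38.7 CPM against 2.20 and 2.87 CPM. Hnf4a and Hnf4g, the factors of that program, were not called. Saa3 was not called at 122 and 171 CPM against 139 and 158 CPM but averaged 1492 CPM in Tspan8posMHCIIhi. The 3 higher members were Slc5a1 (3.75 ± 0.23), Reg3g (2.84 ± 0.27) and Saa1 (1.42 ± 0.24). Of 30 neuroendocrine genes 11 were lower and 1 higher, with the factor Insm1 at 164 and 159 CPM against 15.4 and 7.51 CPM. Ciliated cell genes were lower in 5 of 23 (21.7%) and higher in 4 (17.4%), near the 14.6% and 14.7% of all genes. Foxj1, their main factor, was not called at 63.4 and 79.5 CPM against 92.9 and 111 CPM, while Mcidas, an inducer of multiciliated cells, was at 13.5 and 10 CPM against 0 and 0.137 CPM. In a mixed list of ionocyte, lung and pancreas genes 5 of 19 were higher and 5 lower (26.3% each, against 14.7% and 14.6% of all genes). Slc12a2 (3.46 ± 0.19) and Cftr (1.35 ± 0.22) were among the higher. Without replicate 2 of Tspan8posMHCIIlo the lower genes numbered 10 for the enterohepatic, 5 for the neuroendocrine, 1 for the ciliated and 1 for the mixed list. Without Tspan8negMHCIIhi replicate 2 the neuroendocrine list had 7 lower, the ciliated list 2 lower and 2 higher, and the mixed list 2 lower and 3 higher. The mixed list also had 3 higher without Tspan8posMHCIIlo replicate 2 and 3 lower without Tspan8negMHCIIhi replicate 1, and without Tspan8posMHCIIlo replicate 1 the ciliated list had 3 lower and the neuroendocrine list 2 higher. Saa1 (without Tspan8negMHCIIhi replicate 1, 1.22), Mcidas (without Tspan8posMHCIIlo replicate 2) and Cftr (without Tspan8posMHCIIlo replicate 2 or Tspan8negMHCIIhi replicate 2, 1.06 to 1.08) lost their calls with 1 library left out. Cftr shares exonic sequence with an overlapping gene, so that its count is uncertain.

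Genes of thymic epithelial identity and of immature mTECs were also tested. Of 24 identity genes 10 were higher, mostly keratins and claudins such as Krt19 (3.27 ± 0.18), Krt17 (1.85 ± 0.14) and Cldn3 (1.81 ± 0.17), and 4 lower. Foxn1, the factor on which thymic epithelium depends, was at 208 and 220.5 CPM against 62.1 and 66.8 CPM, and Irf8 at 431 and 384 CPM against 71.5 and 75.6 CPM. Of 17 genes of immature and junctional mTECs 8 were higher and 1 lower. Ly6d, Krt5 and Sox9 had log2 fold changes of 3.45 ± 0.24, 2.43 ± 0.18 and 1.57 ± 0.14, whereas Krt14, Pdpn, Itga6 and Trp63 were not called. The study describes Tspan8negMHCIIlo as containing immature mTECs. Krt14, Pdpn, Itga6 and Trp63 had their highest mean there, as did Krt5 (1704 CPM). Ly6d did not, at a mean of 81.5 CPM in Tspan8negMHCIIlo and 981 CPM in Tspan8posMHCIIhi. Whether the rise of Ly6d reflects immature cells was not tested. Without Tspan8posMHCIIlo replicate 1 or either Tspan8negMHCIIhi replicate 5 genes of that list were higher. Cldn3 and Krt5 share exonic sequence with an overlapping gene, so that their counts are uncertain.

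Proliferation genes fell. Of 61 cell cycle genes 38 were lower and 2 higher, with a median log2 fold change of -2.05. Mki67 was at 273 and 239 CPM in Tspan8negMHCIIhi and 28.0 and 46.1 CPM in Tspan8posMHCIIlo, Cdk1 at 58.0 and 58.4 CPM against 1.65 and 3.14 CPM, and Ccnb1 at 30.2 and 37.0 CPM against 3.30 and 0.683 CPM. Of the genes for the replicative helicase, Mcm5 and Mcm3 had log2 fold changes of -1.42 ± 0.34 and -2.05 ± 0.27. The 2 higher genes encode cell cycle inhibitors: Cdkn1a (p21) was at 189 and 178 CPM against 953 and 902 CPM, and Cdkn2a, the locus of p16 and p19Arf, at 17.1 and 16.4 CPM against 70.4 and 57.2 CPM. Mcm5 (without Tspan8posMHCIIlo replicates 1 or 2 or Tspan8negMHCIIhi replicate 1, -2.11 to -1.17) lost its call with 1 library left out. Cdkn1a shares exonic sequence with an overlapping gene, so that its count is uncertain.

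Interferon-stimulated genes were higher in 22 of 49 and lower in 6, and without either Tspan8negMHCIIhi replicate 13 were higher. Oas2 was at 7.07 and 7.18 CPM against 119 and 139 CPM, Irf7 at 52.4 and 58.7 CPM against 420.5 and 392 CPM, and Isg15 at 30.6 and 32.6 CPM against 119 and 104 CPM. The 6 lower members were Gbp4, Gbp5, Gbp6, Cxcl9, Cxcl10 and Ifit2, of which the Gbp and Cxcl genes are known to answer mainly to interferon gamma. Cxcl9, a ligand of CXCR3, was at 139 and 180.1 CPM against 19.2 and 23.2 CPM and Gbp4 at 281 and 287 CPM against 39.0 and 36.3 CPM. Stat2 rose by 1.65 ± 0.19 and Irf9 by 1.07 ± 0.15 on the log2 scale. The stretch at chr5:105000001-106000000, with the Gbp cluster, had 8 of 11 tested genes lower and 1 higher, and was singled out after its values were seen. Gbp6 (without Tspan8posMHCIIlo replicates 1 or 2, -1.24 to -1.22), Ifit2 (without Tspan8posMHCIIlo replicates 1 or 2 or Tspan8negMHCIIhi replicate 2, -1.80 to -1.60) and Irf9 (without Tspan8negMHCIIhi replicate 2, 0.91) lost their calls with 1 library left out. Irf7, Gbp4, Gbp6, Cxcl10 and Irf9 share exonic sequence with an overlapping gene, so that their counts are uncertain.

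Of 43 survival and death genes 10 were lower (23.3%) and 6 higher (14%), against 14.6% and 14.7% of all genes, and the higher count was 3 without Tspan8posMHCIIlo replicate 2 or either Tspan8negMHCIIhi replicate. Birc2, Cflar and Fas fell (-1.94 ± 0.18, -1.59 ± 0.16 and -2.07 ± 0.26) and Bik and Gsdma rose (2.09 ± 0.20 and 2.09 ± 0.31), while Bcl2, Mcl1, Bax and Bcl2l11 were not called. Of 38 genes of lipid synthesis 10 were higher (26.3%) and 4 lower (10.5%), with Elovl1, Elovl7 and Acaca, which build long fatty acids, at 1.60 ± 0.14, 1.52 ± 0.19 and 1.51 ± 0.13. Of these lipid genes 6 were higher without Tspan8posMHCIIlo replicate 2 and 5 without Tspan8negMHCIIhi replicate 1, and 2 were lower without either Tspan8posMHCIIlo replicate or Tspan8negMHCIIhi replicate 2. In the unfolded protein response 7 of 28 genes were lower (25%, against 14.6% of all genes) and 2 higher (7.14%, against 14.7%). The higher ones were Xbp1 (102 and 97.5 CPM against 326 and 367 CPM) and Ern1 (1.11 ± 0.16), which cuts its RNA, and the lower ones were folding factors such as Pdia6 (-1.53 ± 0.15) and Creld2 (-1.15 ± 0.14). No gene of 13 encoded by mitochondria was called by edgeR or DESeq2, and 3 were higher at an unadjusted p under 0.05. Without Tspan8posMHCIIlo replicate 2 the count of lower mitochondrial genes was 1. Ern1 (without Tspan8negMHCIIhi replicate 2, 0.95) lost its call with 1 library left out. Bcl2, Bax, Elovl1 and Pdia6 share exonic sequence with an overlapping gene, so that their counts are uncertain.

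Apart from family and marker lists, the rule for named genes picked the 12 protein-coding genes with the largest fitted change in each direction. Calb2 (calretinin), Gal (galanin), Prss29, Cytl1, Ucma, Angptl7, Acan (aggrecan), Cpne6 and Gal3st2b had no count in Tspan8posMHCIIlo, and so had Cyp1a2 and Muc6 above. Calb2 was at 25.4 and 32.6 CPM in Tspan8negMHCIIhi and Gal at 26.8 and 27.7 CPM, at least 28.1-fold and 26.5-fold lower, and for the others the bound lay between 19.9-fold (Gal3st2b) and 23.2-fold (Prss29). Madcam1, an addressin for gut-homing lymphocytes, was at 46.8 and 60.2 CPM against 0 and 0.137 CPM, where the second value stands for 1 count. The smallest adjusted p-values among lower genes belonged to H2-Eb2, H2-Aa and Ciita, to Hdc, the enzyme that makes histamine (981 and 902 CPM against 22.5 and 23.8 CPM), and to Actn3, an actinin of fast muscle (469.8 and 431 CPM against 15.4 and 14.3 CPM). Among higher genes they belonged to Bmx, Avil, Entpd3, Ano7 and Sbsn. Entpd3, an ectonucleotidase, was at 13.9 and 15.4 CPM against 351 and 359.6 CPM, Ano7 at 16.8 and 14.1 CPM against 505 and 512 CPM, and Sbsn (suprabasin) at 23.1 and 26.5 CPM against 1072 and 1170.3 CPM. Efna3, an ephrin ligand, was at 1.87 and 1.15 CPM against 113 and 111 CPM. Scgb1b27, a secretoglobin, was the least even of the genes with large increases, at 0.832 and 0.513 CPM against 17.6 and 86.4 CPM, and belongs to a family of similar sequences. Gm4952 was at 0 and 1.15 CPM against 40.1 and 51.2 CPM. Gal3st2b (without Tspan8posMHCIIlo replicate 2) and Scgb1b27 (without Tspan8posMHCIIlo replicate 2, 4.71) lost their calls with 1 library left out. Sbsn and Efna3 share exonic sequence with an overlapping gene, so that their counts are uncertain.

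The 2 subsets outside the comparison share 1 sort marker with each side: Tspan8posMHCIIhi has the Tspan8 of Tspan8posMHCIIlo and Tspan8negMHCIIlo its MHCII. For every gene the mean level of a subset was placed on a line on which Tspan8negMHCIIhi is 0 and Tspan8posMHCIIlo is 1, using log2(mean CPM + 1). Over all genes tested with a difference (16992), the median place was 0.661 for Tspan8posMHCIIhi and 0.483 for Tspan8negMHCIIlo. Over the genes called higher it was 0.777 and 0.346, and Tspan8posMHCIIhi lay nearer Tspan8posMHCIIlo than Tspan8negMHCIIhi for 1941 of 2498 (77.7%), as did Tspan8negMHCIIlo for 934 (37.4%). Over the genes called lower the medians were 0.566 for Tspan8posMHCIIhi and 0.744 for Tspan8negMHCIIlo, and the counts nearer Tspan8posMHCIIlo were 1495 and 1625. Their order depended on the pseudocount: with 5 in place of 1 the counts were 1751 and 1713. These places describe mean levels and carry no test.

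The lists took several forms on that scale. Epidermal genes lay with Tspan8: the higher genes of the cornified envelope had a median place of 0.873 in Tspan8posMHCIIhi and -0.0803 in Tspan8negMHCIIlo, those of the skin barrier 0.992 and -0.265, and those of the goblet list 1.04 and -0.328. Ivl, for example, averaged 248 CPM in Tspan8posMHCIIhi and 7.94 CPM in Tspan8negMHCIIlo. The lower cell cycle genes did likewise (0.796 and 0.0169), with Mki67 at 55.3 CPM and 276 CPM in the same order. TRAs tied to Aire or Fezf2 took the opposite form: lower Fezf2-associated genes had a median place of -0.0552 in Tspan8posMHCIIhi and 0.964 in Tspan8negMHCIIlo, and lower Aire-associated genes 0.361 and 1.00. Apob averaged 40.8 CPM and 4.26 CPM. Tuft genes lay between, at 0.468 and 0.458. Trpm5 averaged 302 CPM in Tspan8posMHCIIhi and 408 CPM in Tspan8negMHCIIlo, against 2046 and 2107 CPM in the Tspan8posMHCIIlo libraries. Lower MHCII genes had places of 0.369 and 0.589. Some lists lay nearer Tspan8posMHCIIlo in both other subsets, so that Tspan8negMHCIIhi stood apart. Among these were higher AP-1 and immediate early genes (0.725 and 0.708) and higher genes of immature and junctional mTECs (1.11 and 0.951). Higher interferon-stimulated genes went past the end of the line in Tspan8negMHCIIlo (1.24), in which Ifit3 averaged 166 CPM, against 73.7 and 57.5 CPM in the Tspan8posMHCIIlo libraries. Ifit3 (without Tspan8negMHCIIhi replicates 1 or 2, 1.32 to 1.44) lost its call with 1 library left out.

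**Figure D4:**
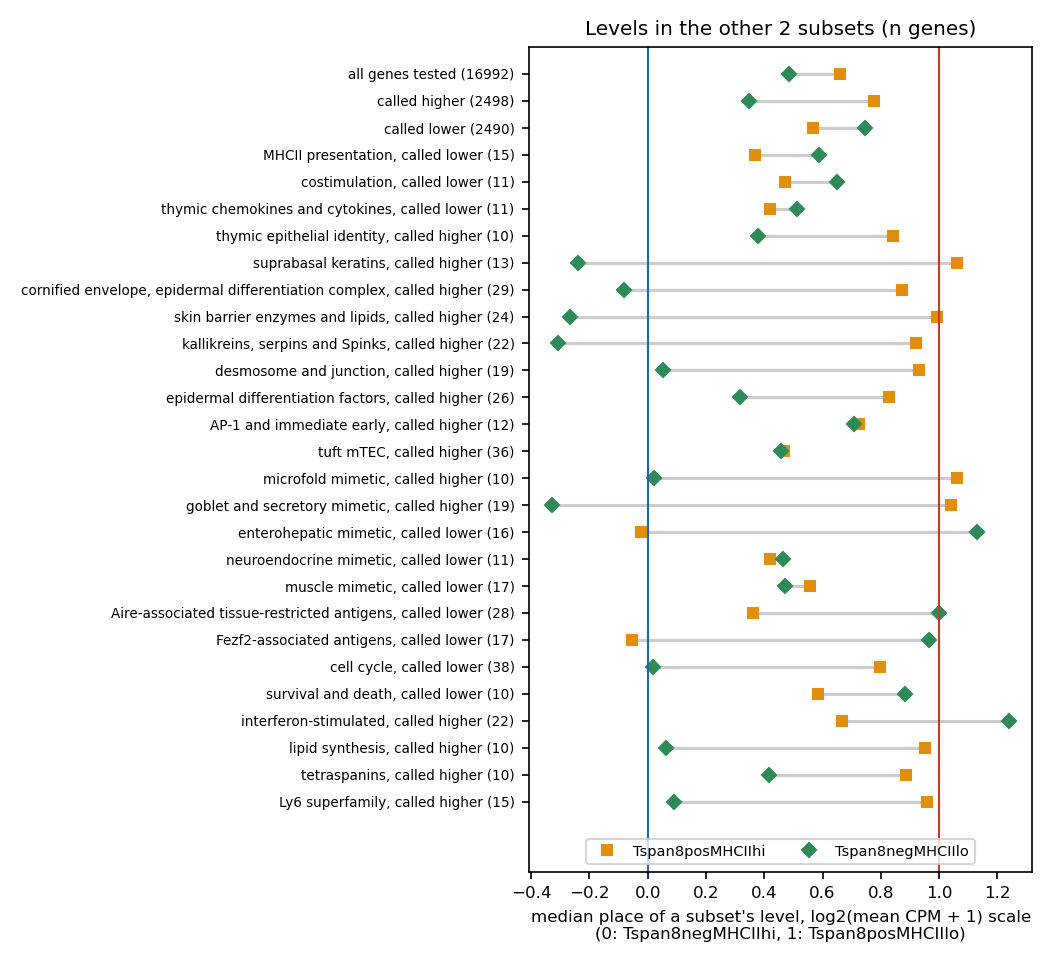
Median place of Tspan8posMHCIIhi (orange squares) and Tspan8negMHCIIlo (green diamonds) between Tspan8negMHCIIhi (0, blue line) and Tspan8posMHCIIlo (1, red line), on the log2(mean CPM + 1) scale, for called genes of each list with at least 10 of them and for all genes tested. Squares lie near 1 and diamonds near 0 for epidermal lists, the reverse holds for Fezf2-associated antigens, and both lie near 0.46 for tuft genes.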

How the data were processed

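The series measured RNA of sorted mouse mTEC subsets by RNA-seq, with 2 libraries from each of 4 subsets. Per the study's methods, cDNA was amplified before tagmentation and read as 54-base single-end reads, whereas the labels name a stranded mRNA kit, so that strand use in counting is unsettled and genes with exon overlap on either strand are called uncertain. Estimated counts of each gene from Salmon 1.8.0 were deposited by the authors in a single table. The submitters' processing notes name FastQC, DESeq2 1.30.0 and mm10 besides.

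Counts were rounded to whole numbers and tested in R 4.3.3 with edgeR 4.0.16 (TMM normalisation, filterByExpr, quasi-likelihood fit of all 8 libraries with 1 mean per subset, Benjamini-Hochberg adjustment). Fold changes are Tspan8posMHCIIlo over Tspan8negMHCIIhi, and errors are SE of the fitted log2 fold change. The floor was 3 counts per library, which covers counting error only, and "at least" marks a fold against the floor for a gene at 0 in both libraries of one side. Replicates of both subsets differed by more than counting noise (chi-square per gene 3.29 and 3.36), so that each library was counted once. Places between subsets used log2(CPM + 1). Gene types and overlaps came from GENCODE vM21, to which 99.49% of 25466 identifiers matched. Promoter sequences came from the RefSeq table (GRCm38.p6), without chromosome 18.

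Genes were named by 1 rule: for either direction the 12 largest fitted changes among called protein-coding genes whose mean reached 10 CPM and whose subsets lay apart, the 5 calls of lowest adjusted p, members of the gene lists, and genes that the study names for these subsets. The members and lists were chosen with earlier results of these data known. Some list members enter the counts but are not reported here by name. On simulated counts with 200 of 16363 genes changed, the fit called 60% of changes of 1.5 on the log2 scale, 74% of 2, 94% of 3 and 88% of 4, and 1 unchanged gene. The changed genes were drawn only from those above a minimum total count, so these rates do not cover genes with few counts. The other subsets were simulated without differences, and far fewer genes were changed than the 29.3% called in the data. Alternatives were DESeq2 1.42.0, other normalisation, filters, thresholds, library sets and depth, a replicate block, and leaving out each library.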

Additional observations from a re-analysis of the deposited data

How the results depend on the processing

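A glmTreat test against a fold change of 2 called 1425 genes higher and 1499 lower in Tspan8posMHCIIlo, against 2498 and 2490 in the fit reported. Under the other planned settings that kept all 4 libraries, the counts were 2118 and 2210 with DESeq2, 2280 and 2688 with size factors in place of TMM, 2481 and 2759 without a filter, 2320 and 2123 at 10 counts in at least 4 of 8 libraries, 2434 and 3382 from the 4 libraries alone, 2183 and 2038 after thinning to the smallest total, 2789 and 3120 at an adjusted p of 0.05, and 3360 and 3018 without a fold limit. Leaving out 1 library, with the lone library of that subset taken to vary like the others, gave 1819 to 2266 genes higher and 1395 to 1939 lower, the lowest lower count without replicate 2 of Tspan8posMHCIIlo. The log2 fold changes of Tspan8 (5.25 to 5.56), H2-Ab1 (-3.44 to -3.28) and Aire (-7.42 to -6.18) kept their calls throughout. Labels number the replicates 1 and 2 in each subset. Same-numbered libraries of the 2 subsets deviated with a correlation across genes of 0.0356, and over the 6 pairs of the 4 subsets it lay between 0.0121 and 0.124. A correlation over all genes cannot decide whether same-numbered libraries were prepared together. Thymocyte marker sums were higher in replicate 2 of both subsets (174 and 299 CPM against 186 and 345 CPM). So were B and plasma cell sums (123 and 171 CPM against 78.6 and 201 CPM), but not fibroblast and endothelial sums (645 and 663 CPM against 356 and 312 CPM). The fit reported left the libraries unpaired. The sources used here leave shared mice unstated. With a replicate block 2542 genes were higher and 2531 lower, 4908 of them (98.4% of the calls reported) called in both, and Tspan8 stood at 5.49, H2-Ab1 at -3.33 and Aire at -6.57. Size factors moved the median log2 fold change of all genes to -0.079. Of 256 other named genes tested, 224 were called, of which 180 kept the call under every alternative, 44 lost it under at least 1 and 0 changed sign. At pseudocounts of 0.5 and 5, chosen after seeing the data, Tspan8posMHCIIhi lay nearer to Tspan8posMHCIIlo for 1953 and 1881 higher genes (1941 reported) and for 1387 and 1751 lower genes (1495). Tspan8negMHCIIlo did so for 950 and 892 higher genes (934) and for 1596 and 1713 lower genes (1625), so that the order of the subsets over lower genes reversed at a pseudocount of 5. The total of 1941518 counts in replicate 1 of Tspan8posMHCIIlo limits how low a level can be told from 0 there.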

Other observations

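Beside the genes named by rule, 2 were singled out after their values were seen. Gm10925, an unprocessed pseudogene, was at 0 in both Tspan8negMHCIIhi libraries and at 379 and 255 CPM in the Tspan8posMHCIIlo libraries, with an edgeR adjusted p of 0.0184, and was not called. Rpl10-ps3 ran the other way, at 180 and 102 CPM against 0 in both Tspan8posMHCIIlo libraries (edgeR adjusted p = 0.0175), and was not called either. Rpl10-ps3 is named as a near-identical copy of Rpl10, and its count is uncertain for that reason. The count of Gm10925, as that of a pseudogene, is uncertain too, and whether its reads came from a similar gene was not tested.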
